A study of Oryza sativa Japonica Group with 4 samples.

Results

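The cellulose synthase genes CESA1 to CESA9 were examined in rice lamina joints, where the leaf blade meets the sheath and bends away from the stem. Probe sets paired with exactly 1 gene were taken where the gene's symbol or RefSeq synonym, with a leading Os dropped, was one of these 9 names. This gave 13 probe sets, out of 57381 on the array and for 9 of the 17905 genes that the platform annotation names. No probe set paired with several genes included a member. Total RNA of lamina joints from japonica rice at the tillering stage was labelled in 1 colour and measured with Affymetrix Rice Genome Arrays. Arrays were run for 2 samples of the wild-type cultivar Zhonghua11 (ZH11) and for 2 of the mutant ila1, which carries a defect in a Raf-like kinase gene and holds its leaves at a wider angle. The labels do not give the ila1 allele, how many plants or joints went into a replicate, or any treatment, and both genotypes share tissue and stage.

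Cellulose is made at the plasma membrane by complexes in which several cellulose synthase subunits, each extruding a glucan chain, work side by side. Plants use separate sets of subunits for the thin primary wall of growing cells and for the thick secondary wall of fibres and vessels. In rice, CESA4, CESA7 and CESA9 are the secondary wall subunits, and mutants in any of them have brittle culms. CESA1, CESA3, CESA5, CESA6 and CESA8 are counted with the primary wall, and CESA2, which is less well characterised, was placed with them here. The lamina joint holds both kinds of wall, since its sclerenchyma and vascular bundles stiffen the hinge while parenchyma cells on its upper side elongate and bend the blade away. The comparison asks whether either set of subunits differed between ila1 and the wild type.

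Each array gives 1 intensity on a linear scale for every probe set. Median signal over all probe sets other than Affymetrix controls was 56.0 and 57.9 on the ZH11 arrays and 53.6 on each ila1 array. On the log2 scale the ZH11 arrays correlated at 0.993 over tested probe sets and the ila1 arrays at 0.970, against 0.921 to 0.937 across genotypes, with probe sets that are not independent of each other. The ila1 arrays were further apart than the ZH11 arrays for 66.3% of tested probe sets. All 4 lamina joint genes of the marker list passed the filter on low values, which left out the lowest 40% of probe sets by mean log2 signal. LG1, which sets up the blade-sheath boundary, IBH1, BU1 and LIC had summed signals of 746 to 787 in ZH11 and 632 to 747 in ila1, and 0 of the 4 passed the test. The sums hide opposite directions. LIC was higher on both ila1 arrays (log2 fold change 0.46 ± 0.14 SE), and IBH1 (-0.44 ± 0.23) and BU1 (-0.28 ± 0.17) were lower on both. LG1 overlapped (-0.24 ± 0.18), while 67% of tested probe sets did not overlap. Precision is limited by the number of arrays.

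Transcripts of 5 primary wall members gave bright signals. CESA1 read 2907 and 2798 in ZH11 against 3879.7 and 2350.4 in ila1. CESA3 read 4053 and 3999 in ZH11 and 4331 and 3198 in ila1, and CESA8 read 1735 and 1683 in ZH11 and 1715 and 1463 in ila1. The genotypes overlapped for these 3 genes, with the first ila1 array level with or above the wild type and the second ila1 array below it. CESA2 was the dim exception among the primary wall members, with 46.2 and 38.8 in ZH11 and 44.1 and 35.4 in ila1. That is lower than the median probe set of each array, so the array says little about CESA2.

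Secondary wall members gave signals between 99.05 and 426. CESA4 read 426 and 421 in ZH11 and 357 and 372 in ila1, both ila1 arrays below both ZH11 arrays. CESA7 read 271 and 283 in ZH11 and 277 and 247 in ila1, and CESA9 read 99.05 and 101.9 in ZH11 and 138.8 and 99.1 in ila1. Both of these overlapped between genotypes. Brightness depends on the probes as well as on the transcript, so the lower signals of the secondary wall members do not rank the genes by transcript level, and only changes of the same probe set are compared below.

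**Figure D1:**
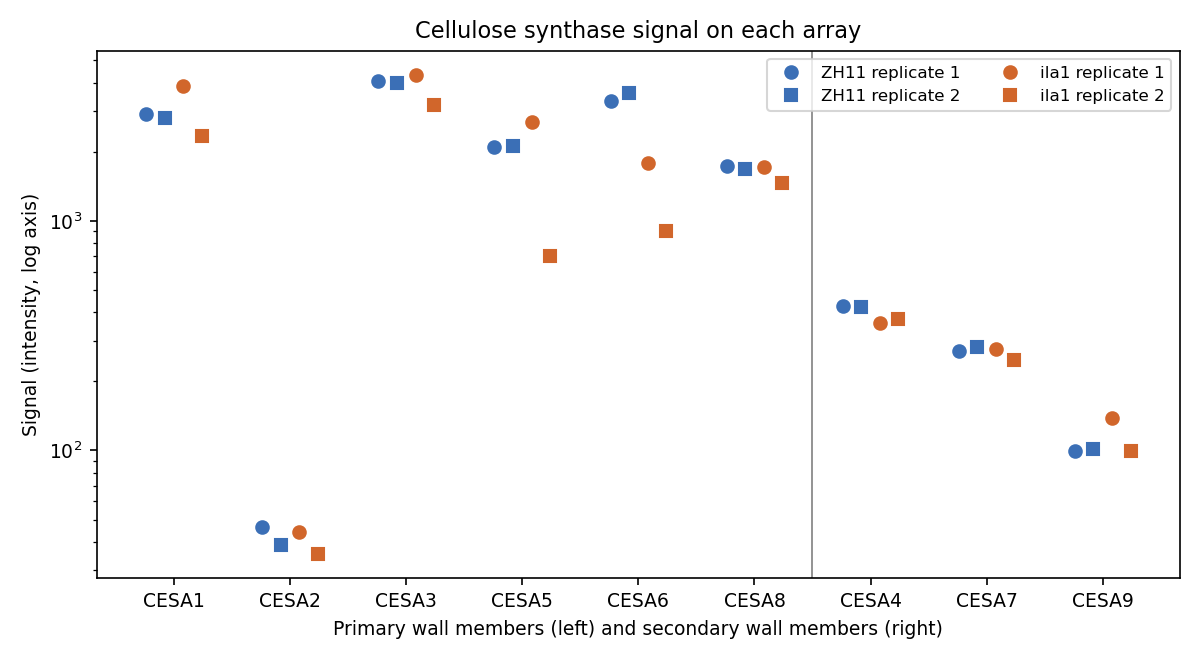
Signal of each cellulose synthase on each array, 1 probe set per gene (the one with the highest mean), with primary wall members left of the line and secondary wall members right of it. Signal is linear intensity on a log axis, blue is ZH11, orange is ila1, circles are replicate 1 and squares replicate 2. CESA6 lies between 3325 and 3588 in ZH11 and between 899 and 1794 in ila1, and CESA5 splits the ila1 arrays.

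CESA6 was the member with the lowest readings in ila1 relative to wild type. Its signal was 3325 and 3588 in ZH11 against 1794 and 899 in ila1, and the genotypes did not overlap. Across all 4 comparisons of 1 mutant array with 1 wild-type array it was 1.85-fold to 3.94-fold lower in ila1. The mean log2 fold change was -1.43 ± 0.33 SE (2.70-fold lower, n = 2 arrays each, 95% interval -2.28 to -0.58, limma unadjusted p = 0.0077), and the limma adjusted p of 0.0505 missed the threshold of 0.05. The difference therefore did not count as a change, although its interval for this single gene lay below 0. In bulk tissue fewer cells of a type and less RNA per cell cannot be told apart.

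None of the 9 members passed the limma test, whereas 15.1% of the 34355 tested probe sets did, 4.71% as higher and 10.4% as lower in ila1. At an unadjusted p under 0.05 the count was 1 member, CESA6, against 34.5% of tested probe sets. The median log2 fold change was -0.11 over the 9 genes, -0.11 over the 6 primary wall genes and -0.08 over the 3 secondary wall genes, beside -0.07 over all tested probe sets. Groups did not overlap for 2 members, CESA4 and CESA6, both lower in ila1, while 67% of tested probe sets did not overlap and 40.6% lay lower. Wild type and mutant overlapped for the other 7.

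The width of the intervals differed between members. CESA2, CESA7 and CESA8 had log2 fold changes of -0.07 ± 0.12, -0.08 ± 0.13 and -0.11 ± 0.12 SE, and their 95% intervals reached from -0.39 to 0.25, -0.41 to 0.26 and -0.42 to 0.20. For CESA7 and CESA8 a change in either direction larger than 1.34-fold lay outside the interval, with the deposited scaling only. Scaled to hybridization controls they read 0.15 ± 0.15 and 0.13 ± 0.15 SE, which moves the upper end further from 0. No such bound is drawn for CESA2, whose low signals understate fold changes. Its other tested probe set had an interval of -0.53 to 0.72. CESA4, at -0.21 ± 0.12 (limma adjusted p = 0.276), had an interval of -0.51 to 0.10, and CESA9, at 0.20 ± 0.18 (limma adjusted p = 0.462), one of -0.26 to 0.65. CESA1 read 0.08 ± 0.25 with an interval of -0.55 to 0.72, and CESA3 -0.11 ± 0.16 with an interval of -0.53 to 0.30. The CESA5 interval, -2.19 to 0.999 around a log2 fold change of -0.60 ± 0.62, held a 4.57-fold lower level as well as higher ones. Missing the threshold does not show that these genes were at the same level in both genotypes.

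**Figure D2:**
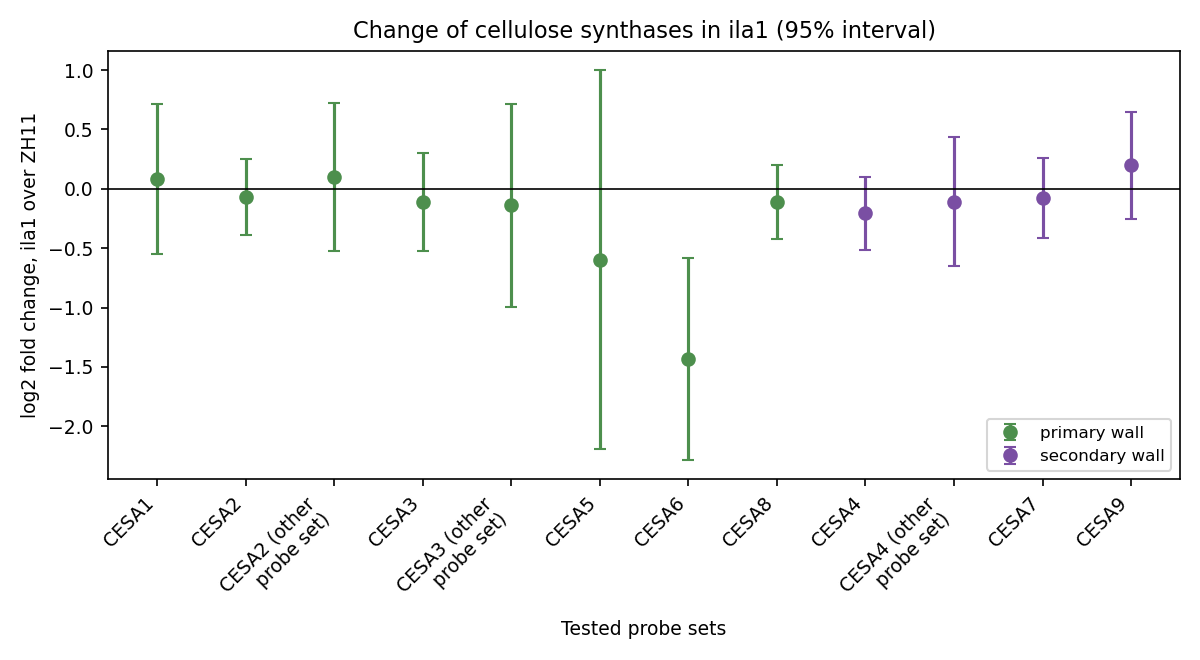
Log2 fold change of ila1 over ZH11 for the 12 tested member probe sets, with bars for the 95% interval from the limma fit, green for primary wall and purple for secondary wall members. Every interval except that of CESA6 (-2.28 to -0.58) includes 0, and that of CESA5 is the widest.

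For 4 genes the array holds a pair of probe sets, and each pair gave nearby changes. The dimmer CESA3 probe set read 178.8 and 135.9 in ZH11 and 197.7 and 98.3 in ila1 (log2 fold change -0.14 ± 0.33), beside -0.11 for the brighter one. The dimmer CESA4 probe set read 373 and 334 in ZH11 and 394 and 269.7 in ila1, with a log2 fold change of -0.11 ± 0.21. On it the genotypes overlapped, unlike on the brighter CESA4 probe set. The CESA2 pair read -0.07 and 0.10, and the dimmer CESA1 probe set, at signals of 29.0 to 44.3, was below the filter on low values and was not tested. It was the only 1 of the 13 member probe sets left out by that filter.

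Relative to the other cellulose synthases on the same array, CESA6 was lower in ila1. The log2 signal of CESA6 minus that of each other member was lower on both ila1 arrays than on both ZH11 arrays for 8 of the 8 other members, and the difference in change ran from -1.63 (against CESA9) to -0.83 (against CESA5). Against CESA3, for example, CESA6 stood at -0.28 and -0.16 in ZH11 and at -1.26 and -1.81 in ila1. CESA6 was taken up as the member with the lowest change, so a negative difference in change against every other member was fixed beforehand. The 8 comparisons also share the same CESA6 values, so their count is not 8 separate results. Taken singly, 67% of tested probe sets did not overlap between genotypes. Under quantile normalization, chosen after seeing the data, the difference in change ran from -1.51 (against CESA1) to -0.85 (against CESA5). The count was 8 of 8 there too, from the same arrays, and is no separate support. Scaling to hybridization controls applies 1 factor per array, so differences within an array hardly move (-1.60 to -0.83). That repeat adds no support. Against CESA5, CESA6 stood at 0.67 and 0.76 in ZH11 and at -0.58 and 0.34 in ila1, with the ila1 arrays far apart. Such a ratio within an array describes these arrays only. Whether the genes changed unequally was not tested.

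As a group, the secondary wall members kept their distance from the primary wall members on 3 of the 4 arrays. The mean log2 signal of CESA4, CESA7 and CESA9 minus that of the 6 primary wall members was -2.56 and -2.51 in ZH11 and -2.48 and -1.91 in ila1. The first ila1 array thus lay 0.03 above the nearer wild type array and the second 0.60 above it. The difference of the genotype means was 0.34, against a gap of 0.06 between the ZH11 arrays and of 0.57 between the ila1 arrays, so it was smaller than the gap within ila1. After quantile normalization it was 0.22, and the first ila1 array, at -2.57, then lay below both ZH11 arrays (-2.51 and -2.45). With the deposited values it was 0.06 without ila1 replicate 2 and 0.63 without ila1 replicate 1. With CESA5 and CESA6 left out of the primary wall mean, a choice made after seeing the data, the genotypes differed by 0.02, and with CESA6 alone left out by 0.13.

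**Figure D3:**
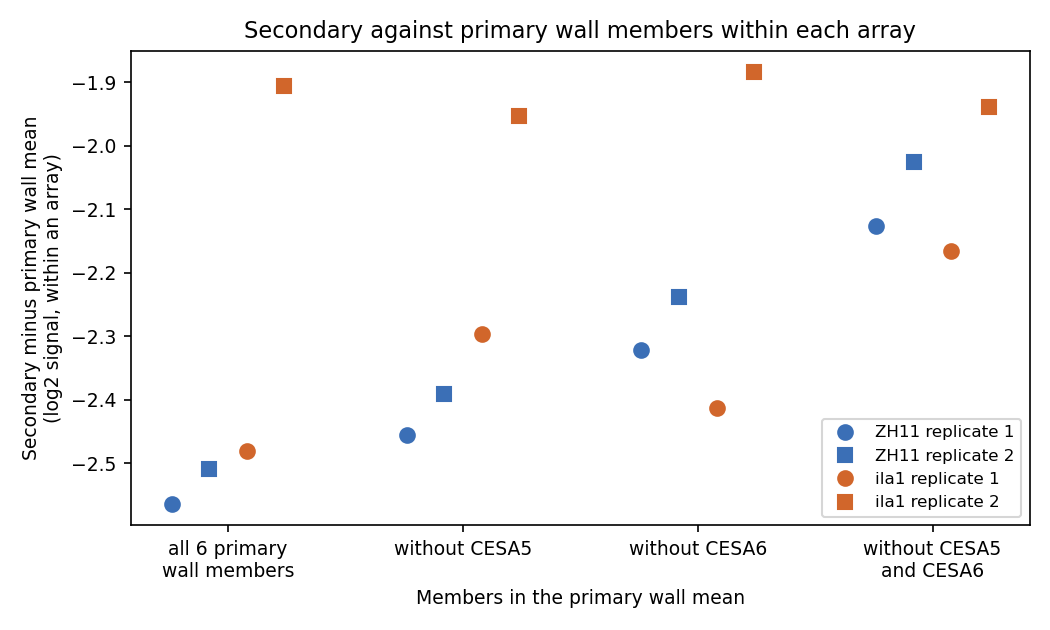
Mean log2 signal of CESA4, CESA7 and CESA9 minus the mean of the primary wall members within each array, for all 6 primary wall members and with CESA5, CESA6 or both left out. Blue is ZH11, orange is ila1, circles are replicate 1 and squares replicate 2. With all 6 members ila1 replicate 2 stands at -1.91 and the other arrays between -2.56 and -2.48, and without CESA5 and CESA6 the 4 arrays lie between -2.17 and -1.94.

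The ila1 arrays stood furthest apart from each other in CESA5, CESA6 and CESA1. CESA5 read 2087 and 2108 on the ZH11 arrays but 2694 and 705 in ila1, one above and one below the wild type. Its ila1 arrays were 3.76-fold apart (log2 difference 1.91), a gap exceeded by 0.480% of tested probe sets, while its ZH11 arrays differed by 0.01 on that scale. CESA6 was 1.98-fold and CESA1 1.65-fold higher on the first ila1 array than on the second, gaps exceeded by 3.30% and 6.86% of tested probe sets. The gaps of CESA3 and CESA9 were exceeded by 17.5% and 18.0%. Those of CESA8, CESA2, CESA7 and CESA4 were ordinary, exceeded by 40.4%, 40.7%, 54.6% and 81.9%. CESA5 was the 1 member of 9 with ila1 arrays over 2-fold apart, where 3.14% of all tested probe sets were.

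Signals were higher on ila1 replicate 1 than on ila1 replicate 2 for 8 of 9 members, the exception being CESA4 at a log2 difference of -0.06, against 51% of all tested probe sets. The ila1 arrays lay apart by a median absolute log2 value of 0.43 over the 9 genes, 0.58 over the primary wall genes and 0.16 over the secondary wall genes, beside 0.18 over all tested probe sets. Between the ZH11 arrays it was 0.04 over the 9 genes and 0.10 over all tested probe sets. CESA9 differed by 0.43 and CESA7 by 0.16 between the ila1 arrays, and the dimmer CESA4 probe set, unlike the brighter one, by 0.52. The primary wall genes CESA3, CESA8 and CESA2 differed by 0.44, 0.23 and 0.23. All 9 members had a larger gap in ila1 than in ZH11, as had 66.3% of tested probe sets.

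**Figure D4:**
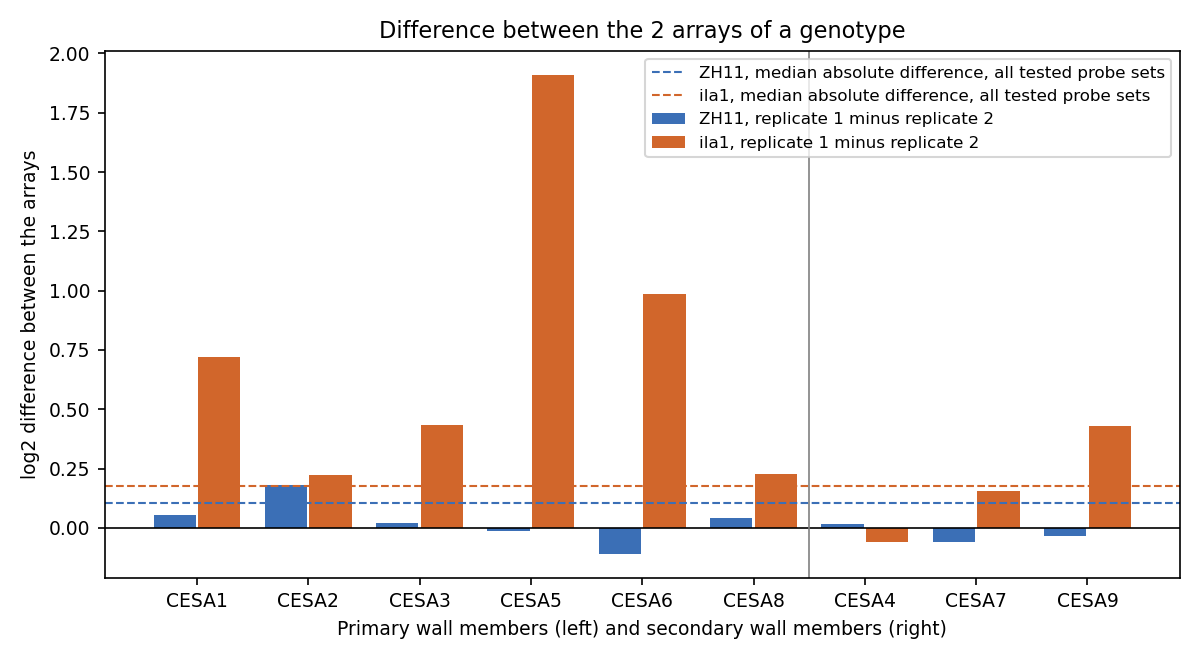
Log2 signal of replicate 1 minus replicate 2 within ZH11 (blue bars) and within ila1 (orange bars) for each member, with dashed lines at the median absolute difference over all tested probe sets, 0.10 in ZH11 and 0.18 in ila1. The ila1 bars of CESA5 (1.91), CESA6 (0.98) and CESA1 (0.72) are the tallest, and that of CESA4 is below 0.

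Markers of other cell types also differed between the ila1 arrays. The photosynthesis genes, with CAB2R and RBCS bright and RBCS-A near the lowest signals, summed to 17680 and 18421 in ZH11 and to 13429 and 19816 in ila1, so that they were higher on ila1 replicate 2, where 8 of the 9 cellulose synthases were lower. Lipid transfer and wax genes of the epidermis (5 of 5 tested) summed to 9646 and 10083 in ZH11 and to 6862 and 11302 in ila1. The bright probe sets of LTP2-B and LTP set that sum, and 2 of the 5, the dim LTP-2 and LTP110-A, were higher on ila1 replicate 1 instead. Neither list had a gene that passed the test. Their part in the gap was not tested. Of 6 tested genes of dividing cells 1 rose, the cyclin gene CYCA1-4 (log2 fold change 1.12 ± 0.19, limma adjusted p = 0.0252), and the median over the 6 was 0.02. Their signals summed to 943 and 968 in ZH11 and to 1328 and 1148 in ila1, a difference that lay mostly in CYCA1-4 and the replication clamp gene PCNA. Phloem genes summed to 12738 and 12982 in ZH11 and to 7749 and 7081 in ila1. Of 3 phloem genes 2 fell, the sucrose transporter gene SUT4 (-1.79 ± 0.18, limma adjusted p = 0.00666) and RPP16 (-0.71 ± 0.07, limma adjusted p = 0.00699). The calls of CYCA1-4, SUT4 and RPP16 did not hold with 1 ZH11 array left out, where few of all tested probe sets pass. Their part in the difference between genotypes was not tested either.

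The readings of single members depended on which ila1 array was used. With only ila1 replicate 2 kept, CESA5 read -1.55, CESA6 -1.92, CESA3 -0.33 and CESA1 -0.28. With only ila1 replicate 1 kept, CESA5 read 0.36, CESA1 0.44, CESA9 0.41 and CESA6 -0.94. Such fits take their spread from the ZH11 pair alone and assume that a lone ila1 array varies as little, so they show sizes rather than support. CESA5 and CESA1 thus changed direction between the ila1 arrays, while CESA6 was lower on each of them. Without ZH11 replicate 1 CESA6 read -1.49 and without ZH11 replicate 2 it read -1.38.

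CESA6 fell on either side of the threshold in fits of all 4 arrays. Its limma adjusted p was 0.0494 with a pseudocount of 64 in place of 16, 0.0439 with no filter on low values and 0.0482 with the mean of a gene's probe sets, and it passed in each. It missed with a pseudocount of 1 (0.0511), after median centring (0.0548), after quantile normalization (0.0776, log2 fold change -1.19) and when the arrays were scaled to hybridization controls (0.0836, log2 fold change -1.19).

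**Figure D5:**
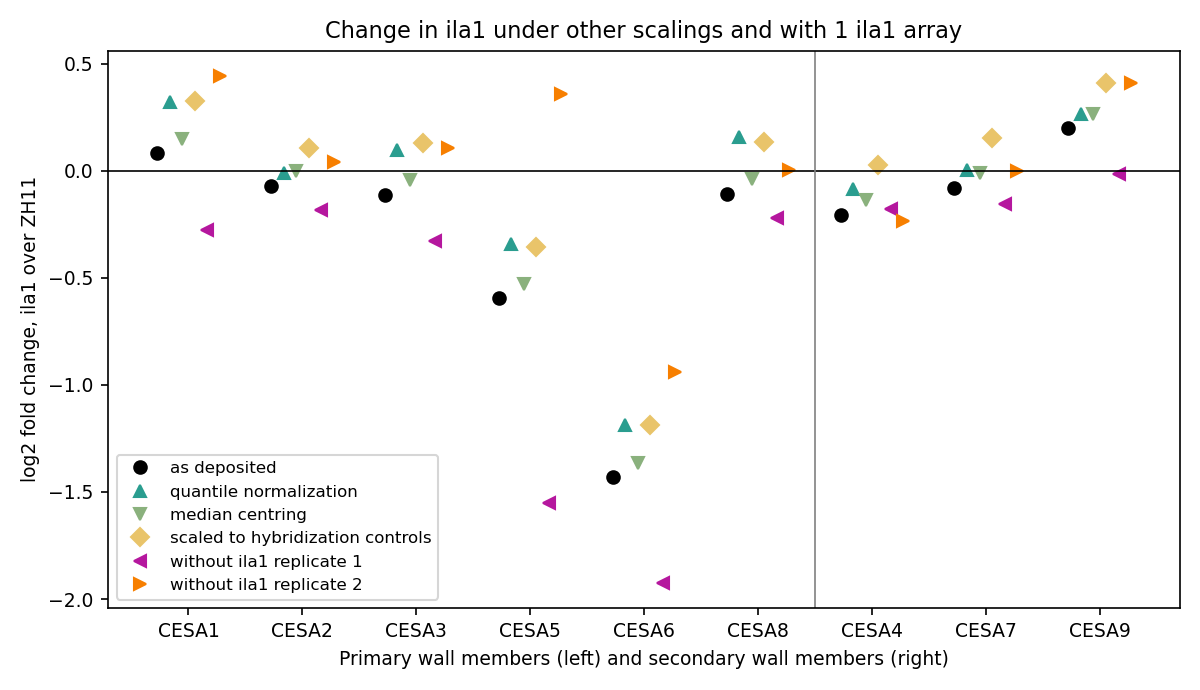
Log2 fold change of ila1 over ZH11 for each member as deposited, under 3 other scalings of the arrays and with 1 ila1 array left out. CESA6 is below 0 in every setting drawn, from -1.92 to -0.94, and CESA5 runs from -1.55 without ila1 replicate 1 to 0.36 without ila1 replicate 2.

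Scaling also moved the small differences of the other members. The median over all 34355 tested probe sets moved from -0.07 with the deposited values to 0.03 under quantile normalization and 0.13 under scaling to hybridization controls, and higher and lower calls numbered 1619 and 3572, 2925 and 2863, and 3298 and 2246 in the same order. As deposited, the 7 members other than CESA5 and CESA6 ran from -0.21 to 0.20, and relative to the median of all tested probe sets from -0.13 to 0.27. With arrays scaled to hybridization controls all 7 turned to or stayed above 0, from 0.03 to 0.41, yet relative to that median they ran from -0.11 to 0.28. None of the 7 passed under any of the 3 other scalings, and their directions are not settled.

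Some of the genes that act beside the cellulose synthases fell in ila1, 5 of 11 tested. The list held sucrose synthases, which supply the UDP-glucose that cellulose is built from, endoglucanases of the GLU family, which are thought to trim or release glucan chains, and COBRA-like proteins, which bind cellulose at the wall. Of 21 such genes 11 passed the filter, of which 5 fell and 0 rose (beside 10.4% lower and 4.71% higher of all tested probe sets), with a median log2 fold change of -0.34 beside -0.07 over all tested probe sets. It read -0.15 under scaling to hybridization controls or with no filter on low values, and -0.20 with a pseudocount of 64. The median over all tested probe sets moved as well, to 0.13, -0.05 and -0.05 in these fits. The 3 tested sucrose synthases did not pass, with a median of -0.06. Of 5 tested endoglucanases 3 fell and of 3 tested COBRA-like genes 2 fell. The remaining COBRA-like gene, BC1, read 202 and 165 in ZH11 and 230 and 213 in ila1. Both ila1 arrays lay above both ZH11 arrays, and it did not pass (0.26 ± 0.15, limma adjusted p = 0.281).

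The endoglucanase gene GLU11 read 1459 and 1510.1 in ZH11 and 324 and 307 in ila1 (log2 fold change -2.18 ± 0.11, limma adjusted p = 0.00238). GLU1, whose loss dwarfs rice plants through poor cell elongation, read 2245 and 2578 in ZH11 and 897 and 677 in ila1 (-1.61 ± 0.17, limma adjusted p = 0.00818). BC1L9, a COBRA-like gene, read 5499.55 and 5807 in ZH11 and 1171 and 1198 in ila1 (-2.24 ± 0.09, limma adjusted p = 0.0019). In all 3 genes both ila1 arrays lay below both ZH11 arrays, as in 40.6% of tested probe sets. The 3 were named for the smallest unadjusted limma p of the list, which favours such a separation. The calls in this list did not hold with 1 ZH11 array left out. Such fits take their spread from the ila1 pair alone, and few of all tested probe sets pass in them.

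Some other genes of the secondary wall fell in ila1. In a list of 29 genes for xylan, lignin and laccases, 26 passed the filter, 9 fell and 0 rose (10.4% and 4.71% of all tested probe sets did), and the median log2 fold change was -0.46. It read -0.25 under scaling to hybridization controls and -0.31 after quantile normalization. The median over all tested probe sets moved as well, from -0.07 as deposited to 0.13 and 0.03 in these fits. GT43G, which belongs to the glycosyltransferase family that builds the xylan backbone, read 1005 and 1068 in ZH11 and 297 and 243 in ila1 (-1.89 ± 0.15, limma adjusted p = 0.0042). Its relative GT43H (-1.08 ± 0.13, limma adjusted p = 0.0106) and the cinnamyl alcohol dehydrogenase CAD6 of lignin synthesis (-1.73 ± 0.20, limma adjusted p = 0.00956) fell as well. Between the ila1 arrays this list lay apart by a median absolute log2 value of 0.34, with 10 of 26 genes higher on replicate 1, where 8 of 9 cellulose synthases were. The calls in the secondary wall list did not hold with 1 ZH11 array left out either, where few of all tested probe sets pass. With 1 array left out, the median log2 fold change of the list ran from -0.52 to -0.44.

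The patterns nearest to the cellulose synthases were sought among 2628 tested probe sets of named genes, by the Euclidean distance of log2 signals centred on their mean over the 4 arrays. For the mean of CESA4, CESA7 and CESA9 the nearest were LIR1, CDPK17 and ARF14, at distances of 0.03 to 0.04, all with log2 fold changes between -0.03 and -0.01. For CESA6 the nearest were BAT1, PP2C33 and PP2C40, the last of which are protein phosphatase genes, at distances of 0.19 to 0.20. PP2C40 read 2641 and 3147 in ZH11 and 1322 and 774 in ila1, a log2 fold change of -1.50, and BAT1 and PP2C33 stood at -1.33 each. Being chosen for their likeness to CESA6 fixed their lower level in ila1. A likeness over 4 arrays is a description of these arrays only.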

How the data were processed

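The authors deposited 1 linear intensity per probe set and array (4 arrays, 57381 probe sets). TRIzol extraction and biotinylated cRNA are stated per the labels' protocols. Which software and scaling produced the values is not given in the sources used here. Groups and replicate numbers come from the sample titles, which call the replicates biological without saying what was taken separately. The p-values reflect only how far these arrays differ within a genotype. Through the limma prior that spread also draws on other probe sets of similar signal, so an SE is not a gene's own spread alone.

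After 123 Affymetrix controls were removed, log2(intensity + 16) was taken, so fold changes of low signals are understated. Probe sets in the lowest 40% by mean log2 value were not tested, leaving 34355. ila1 was tested against ZH11 with limma 3.58.1 (R 4.3.3; lmFit and eBayes with trend, two-sided, Benjamini-Hochberg over all tested probe sets, threshold 0.05). The prior was worth 2.91 degrees of freedom beside 2 residual ones. The fit was tested on simulated data. Intervals are the fit's 95% intervals, not adjusted for the number of genes. Tables and plots used Python 3.11.15, pandas 2.3.3 and matplotlib 3.10.9.

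Platform annotation names 22436 probe sets with 1 gene. All 17905 genes were found in the RefSeq table of assembly ASM3414082v1, used for names only. None of the member probe sets carries the suffix that marks probes shared between genes. A gene was represented by its probe set with the highest mean. A gene that shares the symbol BC1 but is a bHLH factor was left out. Named genes are all members, up to 3 genes with the smallest unadjusted p of the partner and the secondary wall list, and the 3 nearest patterns. Example markers and genes behind a small count were named after their values were seen. Members and lists were chosen with earlier results of these data known. Pseudocount, filter, scaling, trend, replicate block and single arrays left out were the alternatives.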

Additional observations from a re-analysis of the deposited data

How the results depend on the processing

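The count of probe sets that passed, 5191, ran from 22 to 14800 with 1 array left out and stayed within 1.5 times in the other 8 fits. The count of members that passed, 0 as reported, ran from 0 to 4 with 1 array left out, and was 1 (CESA6) with a pseudocount of 64, with no filter, with the mean of a gene's probe sets and with the replicate block. The replicate numbers share only a label, the deviations of same-numbered arrays correlated at 0.10, and the block gave CESA6 a limma adjusted p of 0.0457 and 4816 calls in all. With arrays scaled to hybridization controls CESA2 turned to 0.11, CESA3 to 0.13, CESA4 to 0.027, CESA7 to 0.15 and CESA8 to 0.13, after quantile normalization CESA3 to 0.094, CESA7 to 0.0043 and CESA8 to 0.16, and with the mean of its probe sets CESA2 to 0.014. With 1 array left out CESA1 ran from -0.28 to 0.44, CESA2 from -0.18 to 0.042, CESA3 from -0.33 to 0.10, CESA5 from -1.55 to 0.36, CESA6 from -1.92 to -0.94, CESA8 from -0.22 to 0.0055 and CESA9 from -0.017 to 0.41. The cause was not tested. The median gap between the ila1 arrays (0.43) was 0.44 with a pseudocount of 1, 0.31 with 64 and 0.39 after quantile normalization, and that of ZH11 (0.04) was 0.053 after quantile normalization and 0.084 with the mean of probe sets. The 5 calls among partner genes ran from 0 to 6 and the 9 among secondary wall genes from 0 to 20 with 1 array left out. The alternatives for the secondary wall list and for leaving out single members were chosen after seeing the data.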
